A study of Homo sapiens with 6 samples.

Results

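The 10 genes described here are autophagy receptor, LC3 family and initiation genes together with the MiT/TFE transcription factors: SQSTM1, NBR1, MAP1LC3B, GABARAPL1, ULK1, BECN1, WIPI1, TFEB, TFE3 and MITF. They were named as a list, each was found on 1 row of the count tables, and they are 10 of 60651 gene rows. The libraries are from MDA-MB-231, an established human triple-negative breast cancer line that the labels give as wild type. Cells were grown for 24 h with the solvent DMSO alone or with AF-EAE, by the series title an extract made with ethyl acetate from the plant Antenoron filiforme, at 75 µg/ml or at 150 µg/ml. Each of the 3 groups has 2 libraries, which the labels number as biological replicates. Nothing in the sources used here says that they were separate cultures, so the p-values rest on the spread among these libraries, which may be technical.

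Autophagy encloses cytoplasmic cargo in a double membrane that fuses with the lysosome. The ULK1 kinase complex starts the process, the lipid kinase complex that holds BECN1 marks the membrane with phosphatidylinositol 3-phosphate, and WIPI proteins bind that lipid. LC3 and GABARAP proteins, the relatives of yeast Atg8, are joined to the growing membrane, and receptors such as the SQSTM1 product p62 and NBR1 tie cargo to them. Both the receptors and the lipid-bound LC3 on the inner membrane are themselves degraded, so transcript levels do not give the rate of autophagy. TFEB, TFE3 and MITF are basic helix-loop-helix leucine zipper factors that switch on lysosome and autophagy genes after they move into the nucleus, a step controlled by mTORC1 at the lysosome and not visible in RNA.

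The promoter sequences below are shown because GABARAPL1, MAP1LC3B and ULK1 had the 3 largest fold changes of the 10 genes at 150 µg/ml, while BECN1 did not pass the test in any comparison. Each is the 250 bases before an annotated RefSeq start (GRCh38.p14), read 5′ to 3′ on the strand of the gene, with capitals for matches to the motifs named after them.
GABARAPL1, chr12:10212627-10212876, plus strand: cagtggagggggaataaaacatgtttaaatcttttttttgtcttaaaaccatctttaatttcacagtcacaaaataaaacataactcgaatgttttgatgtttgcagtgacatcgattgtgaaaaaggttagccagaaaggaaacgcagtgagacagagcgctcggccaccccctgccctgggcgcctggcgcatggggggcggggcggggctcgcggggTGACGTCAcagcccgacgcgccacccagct
MAP1LC3B, chr16:87392086-87392335, plus strand: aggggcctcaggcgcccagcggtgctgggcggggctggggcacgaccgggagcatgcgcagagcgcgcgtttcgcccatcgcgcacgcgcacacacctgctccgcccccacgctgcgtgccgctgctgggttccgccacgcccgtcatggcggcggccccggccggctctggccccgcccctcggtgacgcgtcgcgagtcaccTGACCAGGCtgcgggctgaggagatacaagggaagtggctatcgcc
ULK1, chr12:131894372-131894621, plus strand: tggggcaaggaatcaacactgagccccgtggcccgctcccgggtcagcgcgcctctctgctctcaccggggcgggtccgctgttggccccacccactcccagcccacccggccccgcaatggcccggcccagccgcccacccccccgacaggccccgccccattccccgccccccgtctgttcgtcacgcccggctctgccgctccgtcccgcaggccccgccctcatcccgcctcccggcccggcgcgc
BECN1, chr17:42823880-42824129, minus strand: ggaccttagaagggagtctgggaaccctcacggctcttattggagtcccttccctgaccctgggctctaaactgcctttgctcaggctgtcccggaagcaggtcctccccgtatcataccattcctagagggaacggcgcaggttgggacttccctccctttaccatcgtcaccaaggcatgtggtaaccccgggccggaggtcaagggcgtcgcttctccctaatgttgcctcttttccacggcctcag

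All 10 genes were in the RefSeq promoter table, with 17 such windows, since some have several annotated starts. Both strands were searched for CACGTG (the E-box core to which MiT/TFE factors can bind), TCACGTG (an E-box with a T before it, which every match shares with the first motif), TGACNNNGC (the core of the antioxidant response element) and TGATGNAA (a core of the element for CEBP-ATF dimers). The shares of all 35116 windows of the same length that hold them were 6.34%, 3.31%, 10.9% and 3.14%. The antioxidant response element core was found in MAP1LC3B, from 46 to 38 bases before the start, and the other 3 were not in any window of the 10 genes. The cAMP response element TGACGTCA was added to the search after these sequences had been seen. It is in 1.65% of all windows, in GABARAPL1 from 30 to 23 bases before the start, and in 1 of the windows of MITF. These matches are letters in a window and no binding was measured.

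Counts in genes ran from 15621103 to 17113722 per library, and 3 counts are worth 0.174 to 0.196 CPM (counts per 1e6 reads in genes, here scaled between libraries by TMM, edgeR's trimmed mean of M-values). The line's epithelial and mesenchymal markers were present. Several moved with dose. KRT18 was at 184 and 187 CPM with DMSO and at 102 and 95.8 CPM at 150 µg/ml. KRT8 was at 525 and 531 against 296 and 283 CPM, and VIM at 818 and 854 against 550 and 560 CPM. For these genes the 75 µg/ml libraries lay in between. KRT19 was instead at 29.5 and 29.9 CPM with DMSO and at 35.7 and 36.2 CPM at 150 µg/ml. KRT7 was at 28.6 and 30.0 CPM with DMSO, 30.9 and 33.0 CPM at 75 µg/ml, then 15.7 and 18.3 CPM at 150 µg/ml. EPCAM was at 3.69 to 5.47 CPM over the libraries. The part of these shifts in the results was not tested. ESR1 was at 0.917 CPM or less and PGR at 0.058 CPM or less. ERBB2, also read for triple-negative status, was at 81.2 to 99.4 CPM. No reference level for this RNA was available and protein was not measured, so this value does not decide that status. The leukocyte markers PTPRC and CD3E were at 0 in every library. A list of 6 fibroblast and endothelial genes, DCN being at 0, summed to 9.52 and 13.5 CPM with DMSO and to 14.6 to 17.0 CPM in the treated libraries, and its part in the results was not tested. Reads outside annotated genes were 6.32% and 6.72% with DMSO, 6.44% and 7.23% at 75 µg/ml, then 7.98% and 7.73% at 150 µg/ml, and the part of this shift in the results was not tested. RNA of whole cultures was counted, so a change in the number of cells of a kind and in RNA per cell cannot be told apart. Replacing TMM by total counts raised the median log2 fold change over the tested genes from 0.01 to 0.14 at 75 µg/ml and from 0.03 to 0.22 at 150 µg/ml, each against DMSO, and from 0.00 to 0.06 between the doses. The 2 comparisons with DMSO share its libraries.

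**Figure D1:**
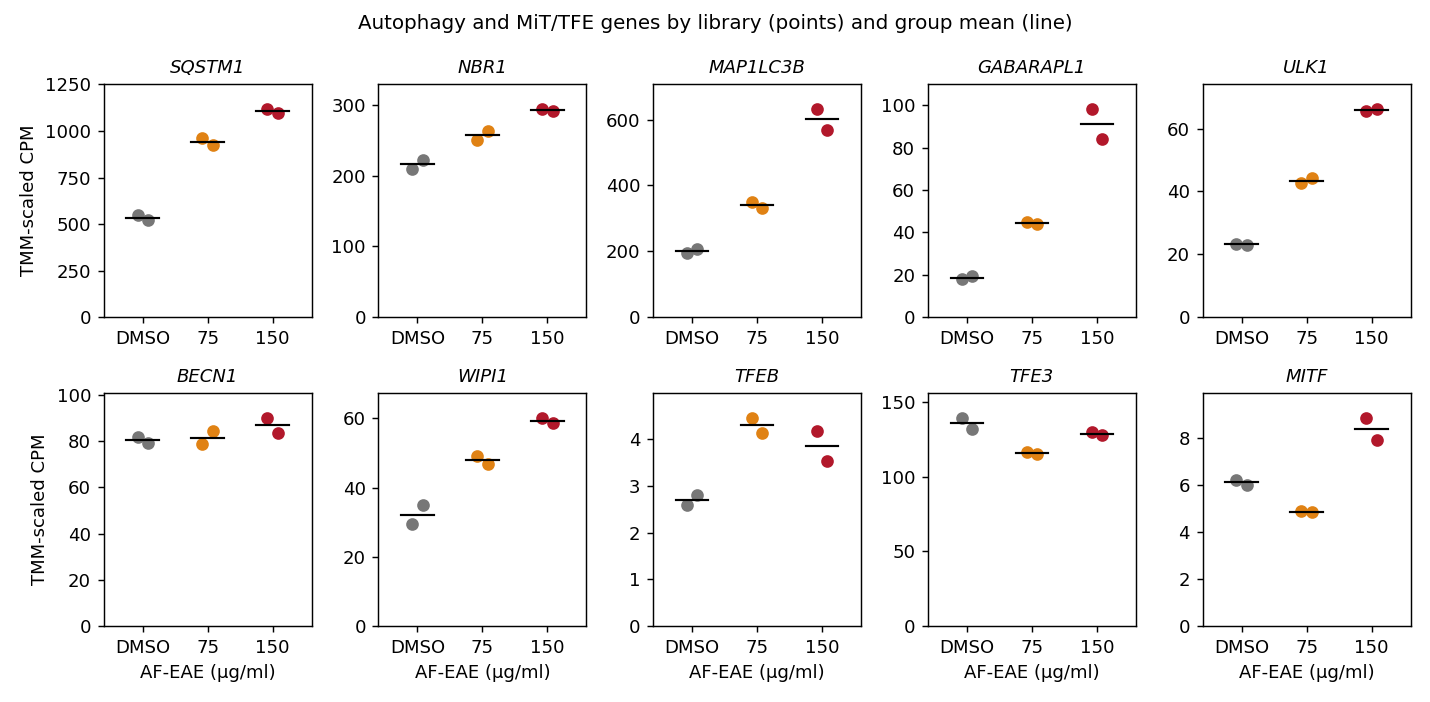
TMM-scaled CPM (vertical axes from 0, 1 scale per gene) of the 10 genes in DMSO and at 75 and 150 µg/ml of AF-EAE; points are the 2 libraries of a group and lines their mean. SQSTM1, NBR1, MAP1LC3B, GABARAPL1, ULK1 and WIPI1 step upward at each dose, BECN1 stays between 78.8 and 90.1 CPM, and TFE3 and MITF are lowest at 75 µg/ml.

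SQSTM1 encodes p62, which binds ubiquitin on cargo and LC3 on the membrane and also holds KEAP1, the repressor of the transcription factor NRF2. Its level was 547 and 520 CPM in the DMSO libraries, 963 and 923 CPM at 75 µg/ml, then 1120 and 1094 CPM at 150 µg/ml. The 3 groups did not overlap, and both libraries at the higher dose lay above both at the lower. The log2 fold change was 0.82 at 75 µg/ml (SE 0.0447, adjusted p = 3.33e-10) and 1.05 at 150 µg/ml (SE 0.0448, adjusted p = 3.87e-12), both against DMSO by the quasi-likelihood test of edgeR, with p-values adjusted after Benjamini and Hochberg, which gave every edgeR adjusted p here. From 75 to 150 µg/ml the log2 fold change was 0.23 (SE 0.044, edgeR adjusted p = 0.00113). SQSTM1 thus had 78.1% of its log2 change at the higher dose already at the lower dose. The gene is ENSG00000161011.20, at chr5:179806398-179838078 on the plus strand (GENCODE 29, GRCh38, as for all genes below). Exons of MRNIP and MGAT4B on the opposite strand cover 22.0% of its exonic bases, and 50.7% of the 50-base stretches of its longest transcript also occur in MRNIP transcripts on the other strand. Since the counting is not stated to use strand, reads there may have been lost or shared.

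NBR1, a receptor of the same architecture that works beside p62, also rose at both doses. It was at 210 and 223 CPM with DMSO, 251 and 264 CPM at 75 µg/ml, then 295 and 292 CPM at 150 µg/ml. Again the groups did not overlap. Its log2 fold changes against DMSO were 0.25 (SE 0.0496, edgeR adjusted p = 0.000636) and 0.44 (SE 0.0493, edgeR adjusted p = 8.28e-07). The step between the doses was 0.19 (SE 0.0488, edgeR adjusted p = 0.00993), a call that was lost without 75 µg/ml replicate 1 (edgeR adjusted p = 0.117) or without 150 µg/ml replicate 1 (edgeR adjusted p = 0.0695). NBR1 is ENSG00000188554.15, at chr17:43170481-43211689, plus strand.

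MAP1LC3B encodes LC3B, the ATG8 protein most used to mark autophagosomes, and it rose at each step. The values were 194 and 206 CPM with DMSO, 350 and 333 CPM at 75 µg/ml, then 633 and 568 CPM at 150 µg/ml. All treated libraries lay above the DMSO libraries, and the higher dose lay above the lower. The fold change was 1.71 at 75 µg/ml and 3.01 at 150 µg/ml (log2 0.77, SE 0.0563, edgeR adjusted p = 1.19e-08, and log2 1.59, SE 0.0562, edgeR adjusted p = 3.68e-13). In contrast to SQSTM1, the mean gained more CPM between the doses (259) than from DMSO to 75 µg/ml (141), and the step had a log2 fold change of 0.82 (SE 0.0543, edgeR adjusted p = 2.45e-08). MAP1LC3B is ENSG00000140941.14, at chr16:87383995-87404779, plus strand. Of the 50-base stretches of its longest transcript, 6.88% also occur in MAP1LC3B2, a near-identical coding copy elsewhere, so reads from those bases are uncertain.

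GABARAPL1, a member of the GABARAP branch of the ATG8 family, had the largest fold change of the 10 genes in each comparison. Its levels were 18.0 and 19.4 CPM with DMSO, 45.0 and 44.1 CPM at 75 µg/ml, then 98.5 and 84.1 CPM at 150 µg/ml. No library of a group came within the range of another group, although the 2 at the higher dose lay further apart than those of the other groups. The fold change was 2.38 at 75 µg/ml (log2 1.25, SE 0.096, edgeR adjusted p = 2.31e-08) and 4.87 at 150 µg/ml (log2 2.28, SE 0.0915, edgeR adjusted p = 1.83e-12). Between the doses it was 2.05 (log2 1.03, SE 0.0818, edgeR adjusted p = 1.54e-07). GABARAPL1 (ENSG00000139112.11, chr12:10212458-10223130, plus strand) shares 9.92% of the 50-base stretches of its longest transcript with transcripts of other genes, mostly an antisense transcript.

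Ratios of counts within a library do not depend on how libraries are scaled to each other. The ratio of MAP1LC3B to SQSTM1 counts was 0.355 and 0.395 in DMSO, 0.363 and 0.361 at 75 µg/ml, then 0.565 and 0.520 at 150 µg/ml. It was thus within the DMSO range at the lower dose and above it in both libraries at the higher dose. The ratio of GABARAPL1 counts to those of its relative GABARAPL2 was 0.397 and 0.439 in DMSO, 0.743 and 0.754 at 75 µg/ml, then 1.61 and 1.48 at 150 µg/ml. MAP1LC3B2 made up 1.51% to 2.50% of the counts of MAP1LC3B and MAP1LC3B2 together in all 6 libraries, and the treated libraries (1.75% to 1.95%) lay between the DMSO libraries. With 2 libraries against 2, an exact permutation test of such a ratio cannot reach 0.05, so the ratios are given without a test.

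**Figure D2:**
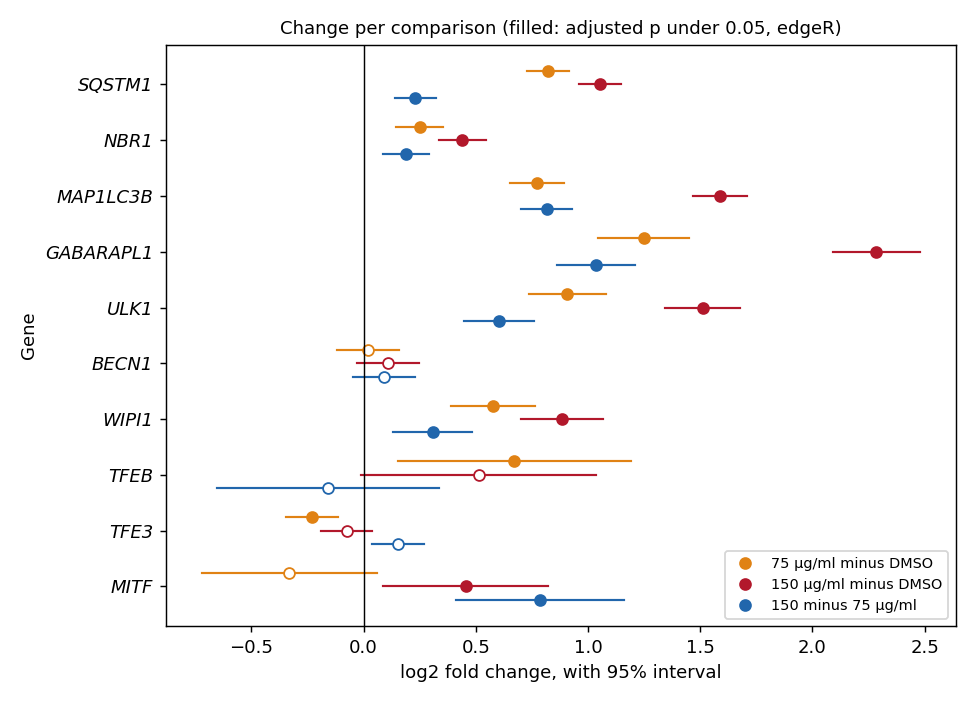
Log2 fold change (horizontal axis) with its 95% interval for each gene (vertical axis) in the 3 comparisons by edgeR with TMM scaling; filled points have an adjusted p under 0.05. GABARAPL1 reaches 2.28 at 150 µg/ml, BECN1 is open in every comparison, and MITF lies at -0.33 at 75 µg/ml and at 0.46 at 150 µg/ml, while the value of TFE3 at 150 µg/ml, -0.08, becomes 0.11 with total counts.

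ULK1, the kinase that starts autophagosome formation, rose at each step. It was at 23.3 and 23.0 CPM with DMSO, 42.7 and 44.2 CPM at 75 µg/ml, then 65.7 and 66.3 CPM at 150 µg/ml. The libraries of each group were close to each other and far from those of the other groups. The log2 fold changes were 0.91 at 75 µg/ml (SE 0.0815, edgeR adjusted p = 1.46e-07), 1.51 at 150 µg/ml (SE 0.0791, edgeR adjusted p = 5.37e-11) and 0.60 between the doses (SE 0.0733, edgeR adjusted p = 1.63e-05). The ratio of ULK1 counts to those of its paralogue ULK2 was 3.19 and 2.42 in DMSO, against 4.63 and 4.93 at 75 µg/ml, then 6.01 and 5.95 at 150 µg/ml. ULK1 is ENSG00000177169.10, at chr12:131894651-131923167, plus strand, and no exon of another gene overlaps it.

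BECN1 encodes Beclin 1, a scaffold of the lipid kinase complex, and did not pass the test. Its levels were 81.9 and 79.1 CPM with DMSO, 78.8 and 84.3 CPM at 75 µg/ml, then 90.1 and 83.5 CPM at 150 µg/ml. The 75 µg/ml libraries lay on either side of the DMSO libraries, whereas both 150 µg/ml libraries lay above them. The log2 fold change was 0.02 at 75 µg/ml (95% interval -0.12 to 0.16, edgeR adjusted p = 0.859) and 0.11 at 150 µg/ml (95% interval -0.03 to 0.25, edgeR adjusted p = 0.178). With total counts the latter was 0.30 and passed the test (edgeR adjusted p = 0.000946). The median of all genes under that scaling was 0.22. BECN1 (ENSG00000126581.13, chr17:42810134-42833350, minus strand) has 17.1% of its exonic bases under exons of CNTD1 and PSME3 on the other strand.

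WIPI1, which binds phosphatidylinositol 3-phosphate on the forming membrane, rose at both doses. Its levels were 29.4 and 35 CPM with DMSO, 49.1 and 46.9 CPM at 75 µg/ml, then 60.2 and 58.6 CPM at 150 µg/ml. The DMSO libraries were further apart than those at either dose, and no groups overlapped. The log2 fold changes against DMSO were 0.58 (SE 0.0883, edgeR adjusted p = 5.71e-05) and 0.88 (SE 0.0868, edgeR adjusted p = 1.68e-07). The step of 0.31 between the doses (SE 0.0829, edgeR adjusted p = 0.0131) did not pass without 75 µg/ml replicate 2 (edgeR adjusted p = 0.0954) or without 150 µg/ml replicate 1 (edgeR adjusted p = 0.0996). WIPI1 is ENSG00000070540.13, at chr17:68420948-68457513, minus strand, and 28.1% of its exonic bases lie under exons of ARSG and a further gene on the opposite strand.

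TFE3, the most abundant of the MiT/TFE factor genes, was at 140 and 132 CPM with DMSO, 116 and 115 CPM at 75 µg/ml, then 130 and 128 CPM at 150 µg/ml. The 75 µg/ml libraries were the lowest, and the 150 µg/ml libraries lay between them and DMSO. TFE3 fell by 0.23 on the log2 scale at 75 µg/ml (SE 0.0542, edgeR adjusted p = 0.00276), a call that was lost with total counts (log2 fold change -0.10, edgeR adjusted p = 0.145). At 150 µg/ml its log2 fold change was -0.08 with TMM (edgeR adjusted p = 0.261) and 0.11 with total counts (edgeR adjusted p = 0.0848), so the sign depended on the scaling. Between the doses the value was 0.15 (SE 0.0541, edgeR adjusted p = 0.0508), just outside the threshold, and it passed in 6 of the 15 alternatives. TFE3 is ENSG00000068323.17, at chrX:49028726-49043486, minus strand.

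TFEB, often described as the main activator of lysosome genes, was scarce in these cells, with 41 to 73 counts per library. It stood at 2.58 and 2.81 CPM with DMSO, 4.46 and 4.14 CPM at 75 µg/ml, then 4.17 and 3.54 CPM at 150 µg/ml. Every treated library was above the DMSO libraries, and the 2 doses overlapped. The log2 fold change was 0.67 at 75 µg/ml (SE 0.246, edgeR adjusted p = 0.0395) and 0.51 at 150 µg/ml (95% interval -0.01 to 1.04, edgeR adjusted p = 0.0961). The call at 75 µg/ml is weak: it was lost with DESeq2 (adjusted p = 0.139), with no filter on low counts (edgeR adjusted p = 0.0577), and without any single DMSO or 75 µg/ml library or 150 µg/ml replicate 1 (edgeR adjusted p from 0.0505 to 0.158). With total counts the value at 150 µg/ml passed (log2 0.70, edgeR adjusted p = 0.0242). TFEB is ENSG00000112561.19, at chr6:41683978-41736259, minus strand.

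MITF, the melanocyte lineage factor of the family, was also low, with 80 to 147 counts per library. Its values were 6.24 and 6.02 CPM with DMSO, 4.89 and 4.87 CPM at 75 µg/ml, then 8.88 and 7.95 CPM at 150 µg/ml. The lower dose lay below DMSO and the higher dose above it. At 75 µg/ml the log2 fold change of -0.33 did not pass (95% interval -0.72 to 0.06, edgeR adjusted p = 0.176). MITF rose between the doses by a log2 fold change of 0.79 (SE 0.178, edgeR adjusted p = 0.00422), which narrowly missed the threshold without 150 µg/ml replicate 1 (edgeR adjusted p = 0.0531). At 150 µg/ml against DMSO the value was 0.46 (SE 0.174, edgeR adjusted p = 0.0368), and this call was lost without any single DMSO or 150 µg/ml library (edgeR adjusted p from 0.0539 to 0.181), with no filter on low counts (edgeR adjusted p = 0.0856) and with DESeq2 (adjusted p = 0.161). MITF is ENSG00000187098.17, at chr3:69739435-69968337, plus strand.

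Since MITF drives pigment genes in melanocytes, 12 melanocyte genes were read beside it. Of these, 5 were tested, TYR, OCA2 and PAX3 were at 0 in every library, and the list summed to 59.7 and 67.1 CPM with DMSO, 53.5 and 61.4 CPM at 75 µg/ml, then 55.3 and 59.6 CPM at 150 µg/ml. At 150 µg/ml 1 of the 5 fell, MLPH (log2 fold change -0.57, edgeR adjusted p = 0.00345), a gene of melanosome transport, and none rose by edgeR. Of all tested genes, 25.8% were higher and 25.7% lower in that comparison. With total counts 1 rose and 1 fell. TFEC, the fourth MiT/TFE gene, was removed by the filter, with 0 and 1 counts in DMSO, 9 and 7 at 75 µg/ml, then 12 and 9 at 150 µg/ml.

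Per kilobase of exon, the order of levels in DMSO was SQSTM1 (69.7 CPM per kb), MAP1LC3B (37.6), TFE3 (31.7), NBR1 (25.7), BECN1 (12.6), WIPI1 (9.46), GABARAPL1 (4.59), ULK1 (3.04), MITF (0.854) and TFEB (0.478). No neighbours in this order overlapped between their 2 libraries. At 150 µg/ml SQSTM1 (145 CPM per kb) and MAP1LC3B (113) were still first and second. GABARAPL1, at 22.3 CPM per kb, was then above WIPI1 (17.5) and BECN1 (13.5), both of which it lay below in DMSO. NBR1 (34.9 CPM per kb) was above TFE3 (30.1) at that dose. Lengths set this order in part: with the longest transcript in place of all exons, NBR1 was above TFE3 in DMSO as well (46.5 against 39.8 CPM per kb), and WIPI1 was at 17.1 against 16.5 CPM per kb for BECN1.

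Within the MiT/TFE family, TFE3 held nearly all of the RNA per length. Its share of the summed CPM per kb of TFE3, MITF and TFEB was 96.1% and 95.8% in DMSO, 94.9% and 95% at 75 µg/ml, then 93.9% and 94.5% at 150 µg/ml. The share was lower in each treated library than in DMSO. TFEB held 1.35% and 1.55% in DMSO, 2.76% and 2.59% at 75 µg/ml, then 2.28% and 1.99% at 150 µg/ml, so it was higher in every treated library.

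**Figure D3:**
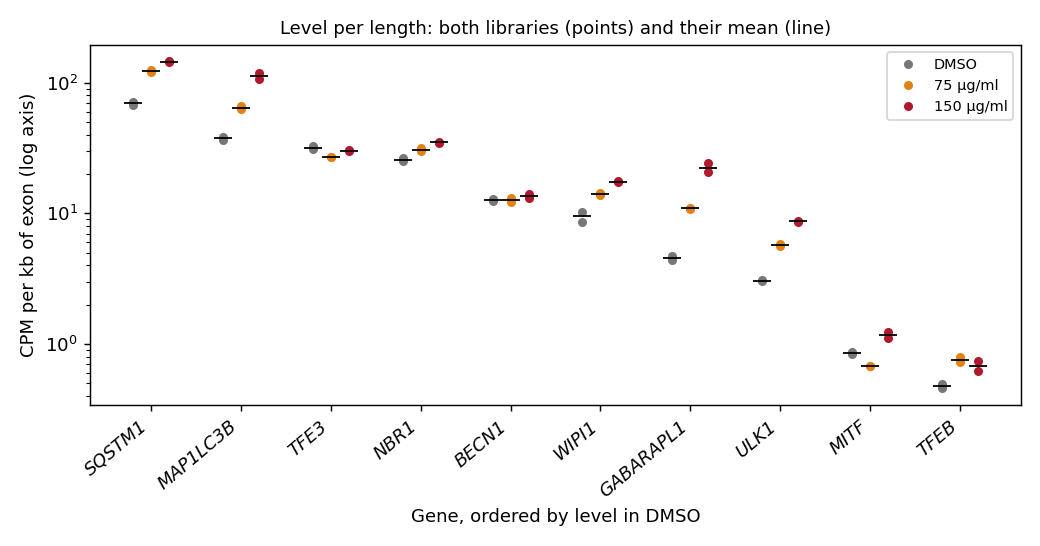
CPM per kilobase of exon (log axis) for the 10 genes, ordered by their level in DMSO (horizontal axis); points are the libraries and short lines the group means. SQSTM1 is first in each group, GABARAPL1 moves from 4.59 to 22.3 CPM per kb between DMSO and 150 µg/ml, and TFEB and MITF stay at 1.24 or less.

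Counted together, 7 of the 10 genes rose and 1 fell at 75 µg/ml, against 19.2% of all 15589 tested genes higher and 19.4% lower (38.6% in either direction) by the same edgeR test. The 7 were SQSTM1, NBR1, MAP1LC3B, GABARAPL1, ULK1, WIPI1 and TFEB, and the 1 was TFE3, which no longer passed with total counts. Their median log2 fold change was 0.62, beside 0.01 for all tested genes. At 150 µg/ml 7 rose and 0 fell, where 25.8% of all genes were higher and 25.7% lower (51.5% together), with a median of 0.70 beside 0.03. No member was lower at an unadjusted p under 0.05 by edgeR or at an adjusted p under 0.05 by DESeq2 or limma-voom in that comparison. MITF took the place of TFEB among the 7. With total counts 7 rose and 0 fell at 75 µg/ml, beside 28.9% higher and 11.6% lower among all genes (40.5% together). Under that scaling 9 rose and 0 fell at 150 µg/ml, beside 38.7% higher and 16.3% lower (55% together).

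From 75 to 150 µg/ml 7 rose, SQSTM1, NBR1, MAP1LC3B, GABARAPL1, ULK1, WIPI1 and MITF, where 9.51% of all genes were higher and 12.5% lower (22% together), and 0 fell by edgeR (0 at an unadjusted p under 0.05, and 0 by DESeq2 and by limma-voom). Without 150 µg/ml replicate 1 the number that rose was 4. Fewer of all tested genes passed without that library too. With total counts 8 rose and 0 fell, beside 14.2% higher and 8.63% lower (22.8% together). Higher in all 3 comparisons were 6 of the 10, the receptor, LC3 family, ULK1 and WIPI1 genes, and 4.39% of all tested genes. Groups did not overlap for 9 of the 10 genes at 75 µg/ml and for 10 at 150 µg/ml, each against DMSO, and for 8 between the doses. This held for 68.5%, 74.8% and 60.6% of all tested genes.

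Other cargo receptors moved in both directions. Of 20 listed, 9 rose and 4 fell at 75 µg/ml, beside 19.2% higher and 19.4% lower among all tested genes. At 150 µg/ml 8 rose and 5 fell, beside 25.8% higher and 25.7% lower. The median log2 fold change at the higher dose was 0.08, beside 0.03 for all tested genes. With total counts the splits were 12 higher and 0 lower, and 11 higher and 2 lower. Among all tested genes they were then 28.9% and 11.6%, and 38.7% and 16.3%. CALCOCO1, a receptor for endoplasmic reticulum and Golgi cargo, went from 19.8 and 24.0 CPM in DMSO to 46.1 and 47.4 CPM at 75 µg/ml, then 64.8 and 65.5 CPM at 150 µg/ml (log2 fold change 1.57 at the higher dose, SE 0.0903, edgeR adjusted p = 1.74e-10). RETREG1 and CCPG1, which serve the endoplasmic reticulum, had log2 fold changes of 1.45 (SE 0.464) and 0.96 (SE 0.126) at 150 µg/ml. The former rested on 8 to 30 counts per library. Other reticulum receptors of the list, named with their values already known, did not follow. At 150 µg/ml TEX264 (-0.04) and RTN3 (0.10) did not pass the test, and SEC62 fell with TMM (-0.17). The ubiquitin-binding receptors nearest to p62 in role, OPTN (0.55), CALCOCO2 (0.74) and TAX1BP1 (0.65), rose at that dose, chosen here after their values were seen. The 5 that fell were likewise chosen after their values were seen. They were NCOA4, the ferritin receptor (-0.18), the mitochondrial receptors BNIP3 (-0.41) and PHB2 (-0.35), SEC62 (-0.17) and the adaptor WDFY3 (-0.16). These values are with TMM. Since 2 of the 20 were lower with total counts, most of these 5 calls depended on the scaling. Other mitochondrial receptors of the list, also named with their values known, differed from BNIP3 and PHB2. At 150 µg/ml BCL2L13 rose (0.82, edgeR adjusted p = 3.94e-09), and BNIP3L (0.05), FUNDC1 (-0.06) and FKBP8 (0.05) did not pass the test.

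In the ATG8 family and its conjugation enzymes, 14 of 16 listed genes were tested, and 3 rose and 1 fell at 75 µg/ml and 5 rose and 0 fell at 150 µg/ml. With total counts 6 and 8 rose and 0 fell at either dose. Among all tested genes 19.2% and 25.8% were higher and 19.4% and 25.7% lower at the 2 doses. Under total counts 28.9% and 38.7% of them were higher and 11.6% and 16.3% lower. MAP1LC3A, the LC3A gene, was at 2.33 and 2.16 CPM in DMSO and at 5.74 and 4.24 CPM at 150 µg/ml (log2 fold change 1.15, SE 0.25, edgeR adjusted p = 0.000932). MAP1LC3B2, which can share reads with MAP1LC3B, had a log2 fold change of 1.5 (SE 0.202, edgeR adjusted p = 7.35e-06), and the protease gene ATG4D one of 0.46 (SE 0.124, edgeR adjusted p = 0.00453). The 1 that fell at 75 µg/ml with TMM, but not with total counts, was ATG3, the enzyme that transfers ATG8 proteins to lipid (log2 fold change -0.23, edgeR adjusted p = 0.0136). ATG3 and GABARAP are named here with their values already known. GABARAP was counted at 0 in both DMSO libraries and at 7 or fewer counts in the others. Other genes cover 55.7% of its exonic bases, so these counts are no measure of its level.

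Among 19 further initiation and membrane genes, 10 rose and 2 fell at 75 µg/ml and 14 rose and 0 fell at 150 µg/ml (medians 0.19 and 0.37). With total counts 15 and 17 rose and 0 fell. Among all tested genes 19.2% and 25.8% were higher and 19.4% and 25.7% lower at the 2 doses, with medians of 0.01 and 0.03. Under total counts 28.9% and 38.7% of them were higher and 11.6% and 16.3% lower. WDR45, a WIPI relative, rose by a log2 fold change of 1.22 at 150 µg/ml (SE 0.121), the lipid transfer protein gene ATG2A by 1.13 (SE 0.0488) and NRBF2, a subunit of the BECN1 complex, by 0.79 (SE 0.0923). ATG2A went from 159 and 157 CPM in DMSO to 348 and 345 CPM at that dose, the edgeR adjusted p being 4.39e-12. Of 13 tested fusion genes, 8 rose and 1 fell at 75 µg/ml and 9 rose and 1 fell at 150 µg/ml. With total counts 11 and 12 of these were higher and 1 lower, to be read beside the same shares of all tested genes. The tethering complex genes VPS39 (0.79), VPS11 (0.53) and VPS18 (0.46) had the largest values that rose at the higher dose. EPG5, a tether that is named with its values already known, fell at both doses, with log2 fold changes of -0.55 and -0.38.

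Of 22 genes that control the MiT/TFE factors, 9 rose and 3 fell at 75 µg/ml and 10 rose and 3 fell at 150 µg/ml (medians 0.15 and 0.14, beside 0.01 and 0.03 for all tested genes), or 14 higher and 1 lower and 15 higher and 1 lower with total counts. The largest changes at the higher dose were in MCOLN1, the lysosomal calcium channel gene (log2 fold change 0.60, SE 0.0806, edgeR adjusted p = 7.17e-06), RRAGC (0.57, SE 0.102, edgeR adjusted p = 0.000151) and the calcineurin subunit gene PPP3CA (-0.55, SE 0.0575, edgeR adjusted p = 3.47e-07). RRAGD, a Rag GTPase gene known as a target of the family, was at 38.8 and 35.8 CPM with DMSO, 47.0 and 48.1 CPM at 75 µg/ml, then 46.5 and 52.8 CPM at 150 µg/ml. Its log2 fold change was 0.35 at 75 µg/ml (edgeR adjusted p = 0.00333) and 0.41 at 150 µg/ml (edgeR adjusted p = 0.000528).

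Of 10 other tested transcription factors with known autophagy targets, 3 rose and 2 fell at 75 µg/ml and 6 rose and 2 fell at 150 µg/ml. With total counts 6 and 7 were higher and 2 lower. Among all tested genes 19.2% and 25.8% were higher and 19.4% and 25.7% lower at the 2 doses. Under total counts 28.9% and 38.7% of them were higher and 11.6% and 16.3% lower. DDIT3, the stress factor CHOP, had a log2 fold change of 1.31 at 150 µg/ml (SE 0.132), XBP1 of the unfolded protein response 1.22 (SE 0.0601), and the cell cycle factor E2F1 -1.12 (SE 0.0594). No test of these against the MiT/TFE genes was made.

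**Figure D4:**
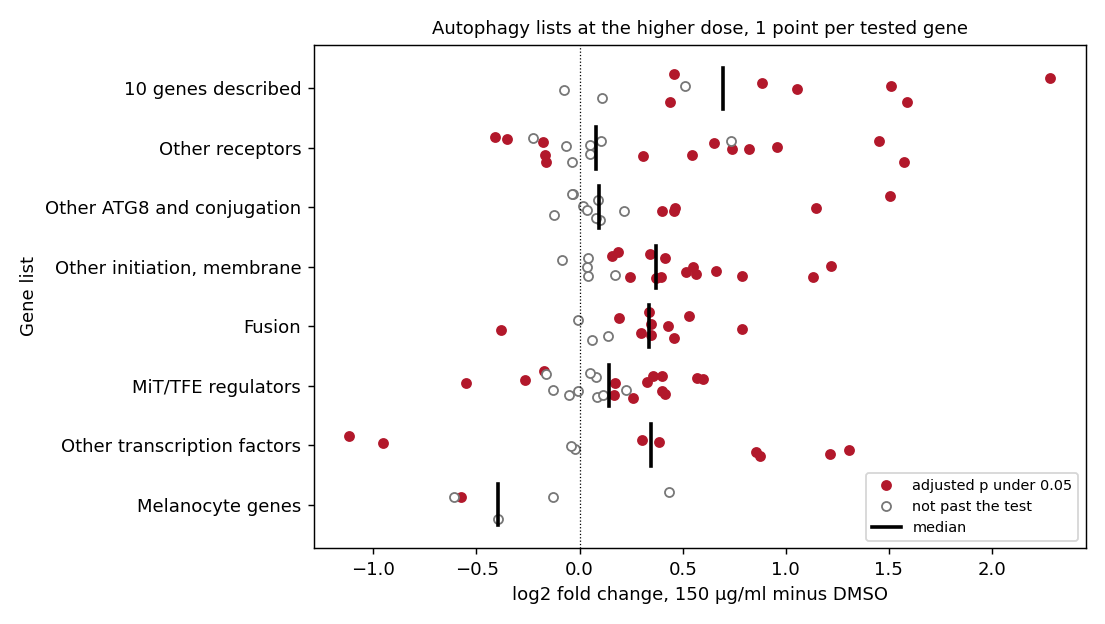
Log2 fold change at 150 µg/ml minus DMSO (horizontal axis, TMM scaling) for each tested gene of 8 lists (rows); filled points have an adjusted p under 0.05 by edgeR and black lines are list medians. The median of the 10 genes is 0.70, those of the other lists lie between -0.40 and 0.37, and with total counts all medians are higher.

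Genes were also ranked by how closely their log2 CPM, centred on the DMSO mean, followed 3 of the genes over the 6 libraries, among 9508 other genes with a mean of 10 CPM or more. Nearest to SQSTM1 were EDEM2, TOM1 and NINJ1, with root mean square differences of 0.0392, 0.046 and 0.0475 on the log2 scale. Their log2 fold changes were 0.80, 0.86 and 0.88 at 75 µg/ml, then 1.11, 1.08 and 1.10 at 150 µg/ml. Nearest to GABARAPL1 were CXCL3 (0.0866), TRIB3 (0.118) and C9orf72 (0.119). Nearest to TFE3, the MiT/TFE gene with the highest level per length, were RPRD1B (0.0251), NIPA2 (0.0259) and JMJD6 (0.0265).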

How the data were processed

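Raw counts of reads per gene, 1 table per library, were deposited by the authors. Per the submitters' processing notes, HISAT2 2.2.1, HTSeq 2.0.2 and build hg38 were used. No source used here gives the counting options, strand setting or annotation release. The 5 summary rows entered neither library sizes nor tests: reads outside genes were 6.32% to 7.98% of all counted reads and reads in overlapping genes 10.95% to 11.48%.

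Counts of the 6 libraries were fitted together with edgeR 4.0.16 (R 4.3.3): TMM, default filter by group, group means, quasi-likelihood test, Benjamini-Hochberg adjustment over 15589 tested genes, threshold 0.05. The filter removed 45062 rows, and all 10 members passed it. Standard errors come from the F statistic. The test was checked on simulated counts in which a small share of genes changed, in random directions. Far more genes were called here, so that check does not address the choice of scaling or replicates that may be technical. Depth limits TFEB and MITF most; the floor of 3 counts and all intervals cover counting error or the spread of these libraries only. Alternatives were other scalings, filters, DESeq2 1.42.0, limma-voom (limma 3.58.1), a fit of 2 groups, a replicate block, a threshold of 0.01 and leaving out each library.

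Symbols came from a gene name table (60481 rows matched), coordinates and exon lengths from GENCODE 29. The members, the other lists and the alternatives were chosen with earlier results of these data known. All members are named. Of each other list the 3 genes with the largest absolute log2 fold change at 150 µg/ml among those past the test are named, and TFEC, RRAGD and MAP1LC3B2 in any case. Genes of these lists named outside this rule are marked in the text as chosen with their values known. Likeness was computed with a prior count of 2.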

Additional observations from a re-analysis of the deposited data

How the results depend on the processing

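Of 447 values of single genes under the alternatives, 414 kept their direction and their side of the threshold, 22 no longer passed, 8 newly passed and 3 changed sign. The sign changes were BECN1 at 75 µg/ml against DMSO, from 0.02 to -0.0088 without DMSO replicate 2 and to -0.033 without 75 µg/ml replicate 2 (leaving out single libraries gave -0.033 to 0.056, and total counts gave 0.14), and TFE3 at 150 µg/ml against DMSO, from -0.08 to 0.11 with total counts. The number of members lower at 75 µg/ml was 1 and became 0 with total counts. Leaving out single libraries, 4 to 8 members were higher at 150 than at 75 µg/ml, with 4 without 150 µg/ml replicate 1. Fewer of all tested genes passed between the doses without 150 µg/ml replicate 1 as well. Where 1 library is left out, the remaining library of that group is assumed to vary like the other groups. Deviations of replicate 1 correlated between groups at 0.00373 to 0.059, so no large shared effect of the replicate number was seen. Whether the replicates were paired is not stated in the sources used here. With the replicate block 7 members rose and 1 fell at 75 µg/ml, 7 rose at 150 µg/ml, and 8 rose between the doses, TFE3 being the addition (0.15, edgeR adjusted p = 0.0407).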
